A study of Mus musculus with 6 samples.

Results

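The complement activation components examined here were the genes *C1qa*, *C1qb*, *C1qc*, *C1ra*, *C2*, *C3*, *C4b*, *Cfb*, *Cfd* and *Cfp*. They were chosen by gene symbol, and all 10 were found among the 33924 genes of the table that the authors deposited for their poly(A)-selected libraries of mouse RPE/choroid. RPE/choroid is the retinal pigment epithelium, a pigmented cell layer that supports the photoreceptors, together with the vascular choroid behind it. The libraries came from 3 young and 3 aged C57BL/6J mice, the inbred laboratory strain, with no allele or agent added in either group, and both eyes of a mouse were pooled in a sample. By their labels the young animals were 1 to 2 months old. The aged animals were 20 to 24 months old by title but 22 to 24 months old by the separate age entry. All labels read male, whereas the study's methods describe a slightly older young group and animals of both sexes. RNA came from scraped tissue that holds several cell types, so more cells of a type and more RNA per cell cannot be told apart. The table holds the mean normalized count over the 6 libraries, a fold change, its standard error and its p-value for each gene, and no value for any library, so the values of single mice and the overlap of the groups cannot be given. Fold changes were turned to aged over young.

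Complement is a cascade of blood and tissue proteins that tags surfaces for removal. In the classical pathway, C1q binds a target and carries the proteases C1r and C1s. C1r activates C1s, C1s cleaves C4 and C2, and the C4 and C2 fragments form a convertase that cleaves C3. In the alternative pathway, C3b binds factor B, factor D cleaves the bound factor B, and properdin stabilises the resulting convertase, so that deposited C3b leads to more C3b. The liver makes most circulating complement, and C1q is made chiefly by macrophages and microglia.

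Of the 10 complement activation components, 8 were upregulated in aged RPE/choroid and 0 were downregulated. *C3*, the protein on which all complement pathways converge, had the largest change at 12.2-fold, the 3 chains of C1q were 3.81-fold to 4.31-fold higher, and *C1ra* and *C4b* were 3.08-fold and 3.07-fold higher. *Cfb* and *C2*, which encode the related proteases of the C3 convertases, changed less, at 1.86-fold and 1.66-fold. *Cfd* and *Cfp*, which encode factor D and properdin, did not pass the test, with values of 0.666-fold and 0.915-fold. A gene passed where its adjusted p-value from the authors' DESeq2 Wald test was under 0.05, with the Benjamini-Hochberg adjustment over 18196 genes, those with a p-value whose mean normalized count reached at least 10. By that rule 12.9% of all genes tested were higher in aged RPE/choroid, 10.4% were lower and 23.3% passed in either direction. The 10 genes had a median log2 fold change of 1.62, against -0.02 over all genes tested.

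**Figure D1:**
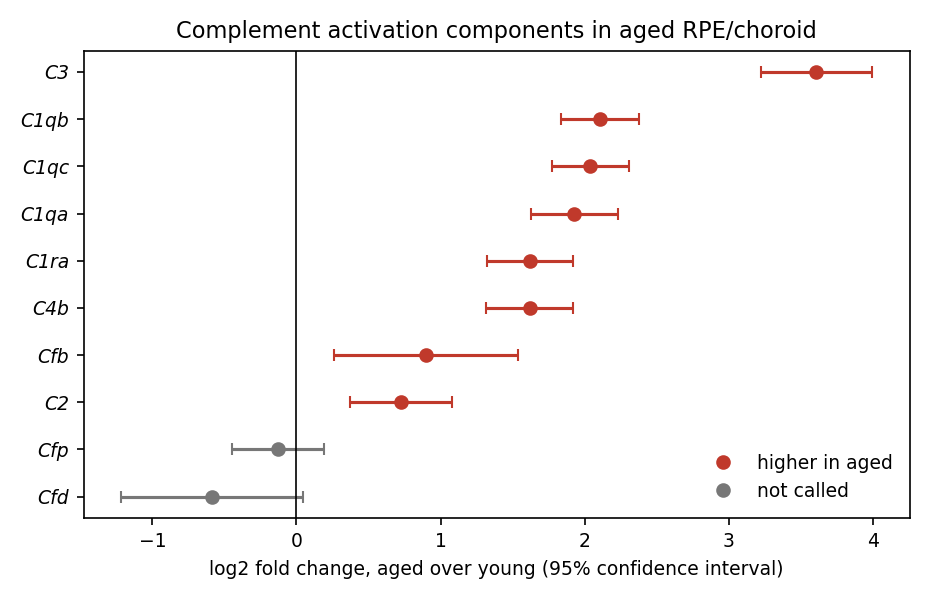
Log2 fold change of each complement activation component in aged over young RPE/choroid (horizontal axis), with bars for the 95% confidence interval from the authors' standard errors, 3 libraries per group. *C3* lies at 3.61, the C1q chains lie between 1.93 and 2.11, and the intervals of *Cfp* and *Cfd* span 0.

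The promoters of *C1qb* and *C1qc* are shown because these neighbouring genes rose together, that of *C3* because it had the largest change, and that of *Cfp* because it did not pass the test. RefSeq promoter sequences of GRCm38.p6, each running from 250 bases before to 50 bases after the RefSeq start, were at hand for 6 of the 10 genes. For *C1qc* and *C1ra* that start lies inside the span of the gene given below, which is from GENCODE. For *C1qb* it lies slightly outside that span. The 300 bases lie at chr4:136886151-136886450 for *C1qb*, at chr4:136892865-136893164 for *C1qc*, at chr17:57228087-57228386 for *C3* and at chrX:20931506-20931805 for *Cfp*, all on the minus strand, and are written 5′ to 3′ as transcribed. Capitals mark matches to the motifs searched.
C1qb: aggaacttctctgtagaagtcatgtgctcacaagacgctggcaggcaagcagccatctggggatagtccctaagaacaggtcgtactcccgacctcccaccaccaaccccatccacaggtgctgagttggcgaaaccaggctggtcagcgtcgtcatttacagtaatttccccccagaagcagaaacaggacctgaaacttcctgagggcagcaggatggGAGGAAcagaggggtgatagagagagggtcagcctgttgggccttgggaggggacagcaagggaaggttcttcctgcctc
C1qc: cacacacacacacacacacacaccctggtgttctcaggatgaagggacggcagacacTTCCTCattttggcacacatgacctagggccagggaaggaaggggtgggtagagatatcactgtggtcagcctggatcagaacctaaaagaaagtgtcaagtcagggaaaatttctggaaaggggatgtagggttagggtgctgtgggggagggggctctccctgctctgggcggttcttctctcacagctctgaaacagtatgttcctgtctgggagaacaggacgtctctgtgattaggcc
C3: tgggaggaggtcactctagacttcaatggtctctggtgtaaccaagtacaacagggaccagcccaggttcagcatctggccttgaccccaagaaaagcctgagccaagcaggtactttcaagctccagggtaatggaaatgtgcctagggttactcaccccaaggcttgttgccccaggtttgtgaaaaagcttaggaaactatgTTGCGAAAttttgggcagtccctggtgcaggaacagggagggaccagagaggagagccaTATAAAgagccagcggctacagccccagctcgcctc
Cfp: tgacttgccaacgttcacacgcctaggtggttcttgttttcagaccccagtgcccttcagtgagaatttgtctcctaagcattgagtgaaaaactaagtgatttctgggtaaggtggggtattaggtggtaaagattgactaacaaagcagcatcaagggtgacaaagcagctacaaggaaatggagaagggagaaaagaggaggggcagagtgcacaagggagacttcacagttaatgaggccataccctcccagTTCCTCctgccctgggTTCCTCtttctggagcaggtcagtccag

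The motifs were searched on both strands. They were the core GAGGAA of PU.1, a transcription factor of macrophages and other myeloid cells, found in 28.3% of 32851 promoters of the same length, TTGCNNAA for C/EBP proteins (10.8%), TTCNNNGAA for STAT proteins (8.30%), an interferon-stimulated response element (3.44%), an NF-kB site (0.411%) and the TATA box letters TATAAA (13.6%). The PU.1 core began at position -30 from the RefSeq start in *C1qb* and, on the other strand, at -193 in *C1qc* and at 7 and 23 in *Cfp*. *C3* held the C/EBP letters at -45 and TATAAA at 15. Of the promoters not printed, that of *C1ra* held the C/EBP letters at 17, the STAT letters at 33 and the PU.1 core at 45, and that of *Cfd* held none of the 6 motifs. The PU.1 core was thus present in upregulated genes and in *Cfp*, and such short letters are common enough that a match describes the sequence and not a bound site.

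C1q is built from A, B and C chains, encoded by *C1qa*, *C1qb* and *C1qc*. These genes lie side by side on the minus strand of chromosome 4 within 18.7 kb (GRCm38), with 2852 bases between *C1qa* and *C1qc* and 3617 bases between *C1qc* and *C1qb*, and each has 3 exons. No sequence word of 50 bases in their transcripts occurs in another gene, so their reads can be told from those of other genes.

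*C1qa* (ENSMUSG00000036887.5, chr4:136895917-136898803) had a mean normalized count of 13165 over the 6 libraries, rank 406 of the 18196 genes tested. The group means, which were worked out from that mean and the fold change and are approximate, were 5478 in young and 20852 in aged RPE/choroid. The log2 fold change was 1.93 with a standard error of 0.15 (adjusted p = 3.78e-34, the authors' DESeq2 Wald test). In linear terms *C1qa* was 3.81-fold higher, with a 95% confidence interval of 3.09 to 4.69.

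*C1qb* (ENSMUSG00000036905.8, chr4:136880129-136886187) had a mean normalized count of 7781, with approximate group means of 2929 in young and 12634 in aged tissue. Its log2 fold change was 2.11 with a standard error of 0.14, or 4.31-fold with an interval of 3.58 to 5.20 (adjusted p = 2.64e-50, DESeq2). *C1qc* (ENSMUSG00000036896.5, chr4:136889804-136893065) had a mean normalized count of 8792, with approximate means of 3440 and 14143. Its log2 fold change was 2.04 with a standard error of 0.14, or 4.11-fold with an interval of 3.42 to 4.94 (adjusted p = 8.43e-49, DESeq2). The confidence intervals of the 3 chains overlapped, and their fold changes were not tested against each other.

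Summed over the chains, the approximate means rose from 11847 to 47629 normalized counts, which is from 0.0304% to 0.112% of all counts (4.02-fold, a sum with no error of its own). Per kilobase of the longest transcript, *C1qa* stood at 12659 normalized counts, *C1qc* at 7308 and *C1qb* at 7152. The level of *C1qa* was therefore 1.77 times that of *C1qb* and 1.73 times that of *C1qc* per kilobase, and *C1qc* and *C1qb* were nearly level at a ratio of 1.02.

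**Figure D2:**
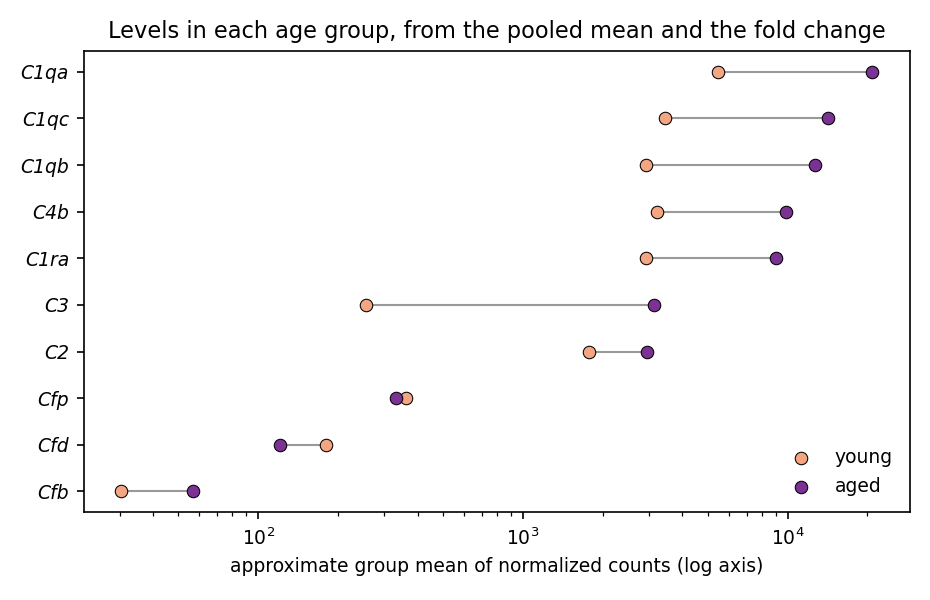
Approximate mean of normalized counts of each complement activation component in young and in aged RPE/choroid (horizontal log axis), worked out from the mean over all libraries and the fold change, without error bars because the table holds no value per library. In aged tissue *C3* reaches 3115, above *C2* at 2937, whereas in young tissue it lies at 255, below *C2* at 1774 and *Cfp* at 363.

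*C1ra* encodes C1r, the protease that is bound to C1q and activates C1s. The gene lies at chr6:124512405-124523443 on the plus strand (ENSMUSG00000055172.10, 11 exons). It had a mean normalized count of 5962, with approximate means of 2924 in young and 8999 in aged RPE/choroid, and was 3.08-fold higher with an interval of 2.50 to 3.79. The log2 fold change was 1.62 with a standard error of 0.15 (adjusted p = 3.36e-24, DESeq2). *C1ra* has a near copy, *C1rb*, 46851 bases away, and 48.0% of the 50-base words of *C1ra* are shared with it, so the division of reads between them is uncertain. *C1rb* rose too (log2 fold change of 1.25, standard error 0.17, adjusted p = 4.11e-12, DESeq2), and the sum of both rose from 3595 to 10595 normalized counts, or 2.95-fold, a value that depends less on that division.

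*C1s*, the partner protease that cleaves C4 and C2, lies 6902 bases from *C1ra* and had approximate means of 4391 and 9728. Its log2 fold change was 1.15 with a standard error of 0.15 (adjusted p = 4.28e-13, DESeq2), and its near copy *C1s2*, listed under the older symbol *Gm5077*, had a log2 fold change of 0.84 (adjusted p = 0.000188, DESeq2). Every C1r and C1s gene of the table was thus higher in aged tissue.

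*C4b* encodes C4, whose fragment anchors the classical convertase to a surface. The gene lies at chr17:34728380-34743882 on the minus strand (ENSMUSG00000073418.4, 41 exons). It had a mean normalized count of 6523, with approximate means of 3204 in young and 9842 in aged tissue. Its log2 fold change was 1.62 with a standard error of 0.15, or 3.07-fold with an interval of 2.49 to 3.79 (adjusted p = 7.90e-24, DESeq2). The neighbouring *C4a* shares 34.6% of the words of *C4b*, and the counts assigned to *C4b* were 27.2 times those assigned to *C4a*. *C4a* had a log2 fold change of 1.22 (adjusted p = 8.25e-06, DESeq2), and the sum of both rose from 3348 to 10177 normalized counts, or 3.04-fold.

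*C2* encodes the protease that joins the C4 fragment in the convertase. It lies on the same strand of chromosome 17 at chr17:34862604-34898265 (ENSMUSG00000024371.14, 18 exons) and had approximate means of 1774 and 2937 around a mean normalized count of 2356. Its log2 fold change was 0.73 with a standard error of 0.18, or 1.66-fold with an interval of 1.29 to 2.12 (adjusted p = 0.000643, DESeq2). That interval lies below those of *C1ra*, *C4b* and the C1q chains. The annotation holds a transcript that runs through *C2* and *Cfb*, *Gm20547*, which has 38.7% of the words of *C2* and was listed at 0.

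*C3* lies at chr17:57203970-57228136 on the minus strand (ENSMUSG00000024164.15, 41 exons), and its transcripts share no word with another gene. It had a mean normalized count of 1685, with approximate means of 255 in young and 3115 in aged RPE/choroid. The log2 fold change was 3.61 with a standard error of 0.20, or 12.2-fold with an interval of 9.33 to 15.9 (adjusted p = 6.00e-72, DESeq2). It ranked 43 among the 18196 genes tested by log2 fold change. The interval of *C3* lay above that of every other complement activation component, and *C1qb*, the next in order, ended at 5.20-fold. Per kilobase *C3* nevertheless stood at 328 normalized counts, below the C1q chains, *C1ra*, *C4b* and *C2*. *C3* is a main product of the liver, and of 8 hepatocyte markers 7 had a mean normalized count under 10, among them *Fgb*, listed at 0. Which cells of the tissue held the *C3* transcript was not tested.

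*Cfb* encodes factor B, the counterpart of C2 in the alternative pathway, and its start lies 86 bases from the end of *C2*, at chr17:34856374-34862518 (ENSMUSG00000090231.10, 18 exons, minus strand). It was the least abundant of the 10, at a mean normalized count of 43.5 and approximate means of 30.4 in young and 56.7 in aged tissue. The log2 fold change was 0.90 with a standard error of 0.32, or 1.86-fold with an interval of 1.20 to 2.90 (adjusted p = 0.0276, DESeq2). The call of *Cfb* was lost when fold changes were referred to library totals (adjusted p = 0.0605, recomputed here from the shifted fold change and the authors' standard error). *Cfb* shares 73.0% of its words with *Gm20547*, so only 27.0% of its sequence is its own.

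*Cfd* encodes factor D, the protease that cleaves factor B, also known as adipsin for its high level in fat. It lies at chr10:79890853-79892655 on the plus strand (ENSMUSG00000061780.6, 5 exons) and had a mean normalized count of 151, with approximate means of 181 in young and 121 in aged tissue. The log2 fold change was -0.59 with a standard error of 0.32, and the interval ran from 0.430-fold to 1.03-fold (adjusted p = 0.185, DESeq2). Of 8 tested adipocyte markers, 1 was higher and 1 was lower, with a median log2 fold change of -0.15, and none was at 0. The summed approximate level of all 9 adipocyte markers was 6389 in young and 4052 in aged tissue, of which *Car3* held 4348 and 1309 (log2 fold change of -1.73, adjusted p = 0.000128, DESeq2). *Fabp4*, the marker that was higher, held 1494 and 2127 (log2 fold change of 0.51, adjusted p = 0.0247, DESeq2). *Adipoq*, the adipocyte hormone adiponectin, had a mean normalized count of 65.5 (named after its value was seen). It did not pass, with a log2 fold change of -0.22 (adjusted p = 0.719, DESeq2). The part of fat in the value of *Cfd* was not tested.

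*Cfp* encodes properdin and lies at chrX:20925454-20931555 on the minus strand (ENSMUSG00000001128.7, 9 exons). It had a mean normalized count of 348, with approximate means of 363 in young and 332 in aged RPE/choroid. The log2 fold change was -0.13 with a standard error of 0.16 (adjusted p = 0.626, DESeq2), and the interval from 0.732-fold to 1.14-fold does not reach the lower end of any of the 8 upregulated genes. Properdin is a myeloid product, as C1q is, and its gene lay apart from the C1q chains in this comparison. The intervals of *Cfd* and *Cfp* overlapped, and these genes were not tested against each other.

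In order of fold change the genes ran *C3*, *C1qb*, *C1qc*, *C1qa*, *C1ra*, *C4b*, *Cfb*, *C2*, *Cfp* and *Cfd*. The intervals of neighbours in this order overlapped except between *C3* and *C1qb* and between *C2* and *Cfp*. In order of level per kilobase, *C1qa*, *C1qc* and *C1qb* were followed by *C1ra* (2000 normalized counts), *C4b* (1213), *C2* (892), *C3* (328), *Cfp* (213), *Cfd* (163) and *Cfb* (15.8). Summed over the 10 genes, the approximate means rose from 20579 to 73031 normalized counts, from 0.0528% to 0.171% of all counts. With a log2 fold change of at least 1 as a further demand, 6 of the 10 genes passed (*C3*, the C1q chains, *C1ra* and *C4b*), where 3.86% of all genes tested did so upward.

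**Figure D3:**
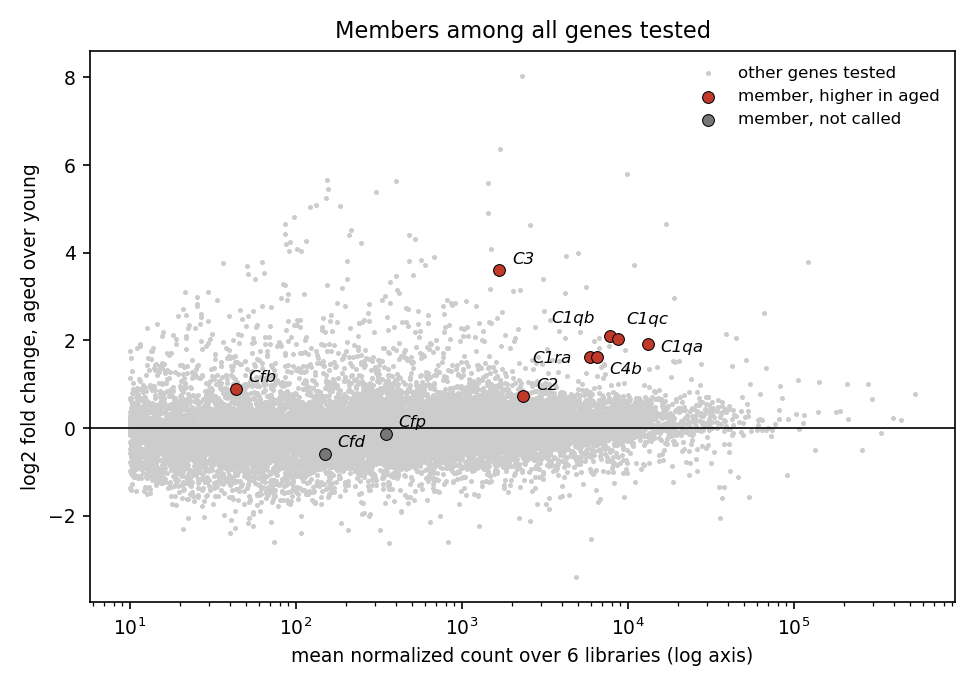
Log2 fold change in aged over young RPE/choroid (vertical axis) against the mean normalized count over the 6 libraries (horizontal log axis) for the 18196 genes tested, with the 10 complement activation components marked. *C3* lies at a log2 fold change of 3.61 and a count of 1685, the C1q chains near 2 at counts from 7781 to 13165, and *Cfb* at 43.5 is the least abundant.

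The normalization bears on these values. Taken from the means and fold changes, the summed counts of the aged libraries stood 0.13 higher on the log2 scale than those of the young. Relative to this shift the members' median was 1.49, *C3* was at 3.48, *C1qb* at 1.98, *C2* at 0.60, *Cfp* at -0.26 and *Cfd* at -0.72, and 7 of the 10 passed, all upward. Over all genes the same shift turned the share of calls that were higher in aged RPE/choroid from 55.5% to 33.1%.

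Genes that lie near the members on the chromosome but belong to no complement list were mostly not called. Within 50 kb of a member, 28 such genes were tested, of which 2 were higher and 1 was lower, with a median log2 fold change of 0.10. Over all genes tested 12.9% were higher and 10.4% were lower, so most genes elsewhere were not called either. The higher ones were *C1rl*, a C1r-like gene next to *C1ra* (0.50, adjusted p = 0.0462, DESeq2), and *Trip10* next to *C3* (0.31, adjusted p = 0.0363, DESeq2), both chosen after their values were seen. Both log2 fold changes were smaller than that of the member beside them. On chromosome 17, *C2*, *Cfb*, *C4a* and *C4b* span 170 kb and were all higher, whereas *Zbtb12*, which overlaps *C2* on the other strand, had a log2 fold change of -0.15 (adjusted p = 0.651, DESeq2).

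The rest of the complement system was read from lists grouped by role. The table held 55 such genes, of which 38 were tested, with 17 higher, 2 lower and a median log2 fold change of 0.41. Among the other classical and lectin components, 13 were in the table and 8 were tested, of which 5 were higher and 0 lower. They were *C1rb*, *C1s*, *C1s2*, *C4a* and *Colec12*, a scavenger receptor with a collectin domain (log2 fold change of 0.99, adjusted p = 2.80e-09, DESeq2). Of the genes whose proteins start the lectin pathway, the collectin and ficolin genes *Mbl1*, *Mbl2*, *Fcnb* and *Colec10* were listed at 0. *Colec11* and *Fcna* had mean normalized counts of 58.1 and 54.1 and did not pass, with log2 fold changes of 0.61 (adjusted p = 0.208) and -0.28 (adjusted p = 0.638, DESeq2). *Masp2*, which encodes the lectin pathway protease that cleaves C4, had a mean normalized count of 2.16, and *Masp1* had 39.2 (log2 fold change of 0.06, adjusted p = 0.927, DESeq2).

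The terminal components, which form the membrane attack complex after C5 is cleaved, were near the floor of the data. Of 7 genes only *C7* and *C8g* had a mean normalized count of at least 10, at 10.4 and 116, and neither passed the test, with log2 fold changes of 0.07 (adjusted p = 0.929) and -0.23 (adjusted p = 0.564, DESeq2). *Hc*, the gene of C5, had a mean normalized count of 6.36, *C6* had 3.57, *C9* had 1.65, *C8a* had 0.336 and *C8b* was listed at 0.

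Regulators in the fluid phase had a median log2 fold change of 0.38. Of 12 such genes 7 were tested, of which 2 were higher and 0 lower, beside 12.9% and 10.4% of all genes tested. *Serping1*, the C1 inhibitor that removes C1r and C1s from C1q, rose from an approximate mean of 3778 to 6875 (log2 fold change of 0.86, standard error 0.12, adjusted p = 1.42e-11, DESeq2). *Cfi*, the protease factor I that inactivates C3b and C4b, rose from 31.1 to 77.3 (log2 fold change of 1.31, adjusted p = 0.000196, DESeq2).

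Most tested regulators on the cell membrane were not called, and those called went both ways. Over all genes tested 12.9% were higher and 10.4% were lower. Of 9 tested genes 2 were higher, *Cd55* (log2 fold change of 0.38, adjusted p = 0.0269, DESeq2) and *Cd59b* (0.53, adjusted p = 0.0204, DESeq2), which respectively speed the decay of convertases and block the membrane attack complex, and neither passed relative to library totals (recomputed adjusted p = 0.164 and 0.0864). Lower in aged tissue were *Cd46*, a cofactor for factor I, with approximate means of 134 and 42.8 (log2 fold change of -1.64, adjusted p = 1.68e-06, DESeq2), and *Csmd3* (-1.45, adjusted p = 0.000157, DESeq2).

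Complement receptors were mostly higher in aged tissue. Of 12 tested genes 8 were higher and 0 lower, with a median log2 fold change of 0.98, and *C1qbp* did not pass relative to library totals (recomputed adjusted p = 0.0575). *Itgax* and *Itgb2*, the chains of complement receptor 4, which binds a C3 fragment, had log2 fold changes of 4.92 (adjusted p = 5.50e-203) and 3.12 (adjusted p = 7.19e-114, DESeq2). *Itgax* went from an approximate mean of 92.4 to 2789. *C3ar1*, the receptor of the C3a fragment, had a log2 fold change of 2.39 (adjusted p = 2.60e-58, DESeq2) and approximate means of 404 and 2122. *Lrp1*, a scavenger receptor, was at 1.04 (adjusted p = 1.09e-05, DESeq2) and *C1qbp* at 0.44 (adjusted p = 0.00496, DESeq2). The other genes that rose, *Lair1*, *C5ar1* and *C5ar2* (listed as *Gpr77*), were 1.95-fold to 2.83-fold higher. *Itgam*, which pairs with *Itgb2* in complement receptor 3, did not pass (0.41, adjusted p = 0.485, DESeq2).

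**Figure D4:**
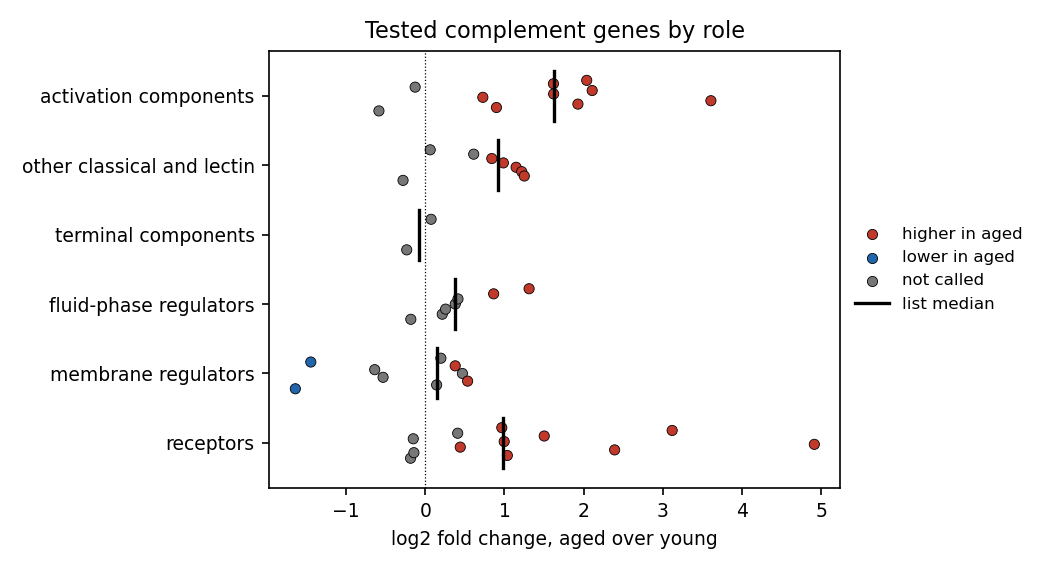
Log2 fold change in aged over young RPE/choroid of each tested complement gene (horizontal axis), by role, with points coloured by the test at adjusted p under 0.05 and a line at the median of each list. Activation components (median 1.62), receptors (0.98) and other classical and lectin components (0.91) lie to the right, whereas fluid-phase regulators (0.38), membrane regulators (0.14) and terminal components (-0.08) lie nearer 0.

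Markers of macrophages moved with the activation components. All 15 macrophage markers were tested and none was at 0, with 11 higher, 2 lower and a median log2 fold change of 1.32, and their summed approximate level rose from 19574 in young to 45105 in aged tissue. The most abundant were *Csf1r*, the receptor for the macrophage growth factor (0.10, adjusted p = 0.676, DESeq2), *Tyrobp*, an adaptor of activating receptors (3.22, adjusted p = 7.08e-82, DESeq2), and *Adgre1*, listed as *Emr1* and known as F4/80 (1.53, adjusted p = 1.76e-21, DESeq2). *Cd163* and *Lyve1*, markers of resident macrophages, were lower (-2.33, adjusted p = 6.57e-16, and -1.19, adjusted p = 0.00510, DESeq2). The summed C1q genes rose 4.02-fold beside 2.30-fold for the summed macrophage markers, a pair of values that were not tested against each other. Among 9 neutrophil and monocyte markers 6 were tested, with 5 higher and 0 lower (4 higher relative to library totals), a summed level of 1506 in young and 3144 in aged tissue, and *Mpo* listed at 0. The higher ones were *S100a8*, *S100a9*, *Csf3r*, *Ly6c2* and *Ccr2*. *Ly6g* and *Elane* had mean normalized counts of 2.14 and 0.676, and *Retnlg* did not pass (log2 fold change of 0.05, adjusted p = 0.947, DESeq2). The part of myeloid cells in the members' values was not tested.

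Markers of other cells were set beside these. Of 10 RPE markers, all tested, 2 were higher and 1 was lower with a median log2 fold change of 0.17, and *Ttr*, *Rgr* and *Pmel* had mean normalized counts of 397586, 297444 and 133753. The RPE markers therefore were present, as the tissue label says. Of 9 fibroblast markers 2 were higher and 5 were lower (median -0.88). Endothelial markers had 0 higher and 1 lower of 8 tested (3 lower relative to library totals), mural markers 0 and 2 of 7, Schwann cell markers 0 and 0 of 6, rod markers 0 and 0 of 8, and skeletal muscle markers 1 and 2 of 8 (1 and 3 relative to library totals). Lymphocyte markers had 4 higher and 0 lower of 7 (3 higher relative to library totals), with a summed level over all 8 of 686 in young and 1548 in aged tissue. Mast cell markers had 5 higher and 1 lower of 6, with a median log2 fold change of 2.78 and a summed level of 1262 and 6398 in all 8. Of 4 tested Y-linked genes 3 were lower in aged tissue, and *Xist*, which is transcribed in female cells, had a mean normalized count of 6.88. In the lists with no value given relative to library totals, that shift and taking out the trend with length and GC content moved a count by at most 1.

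**Figure D5:**
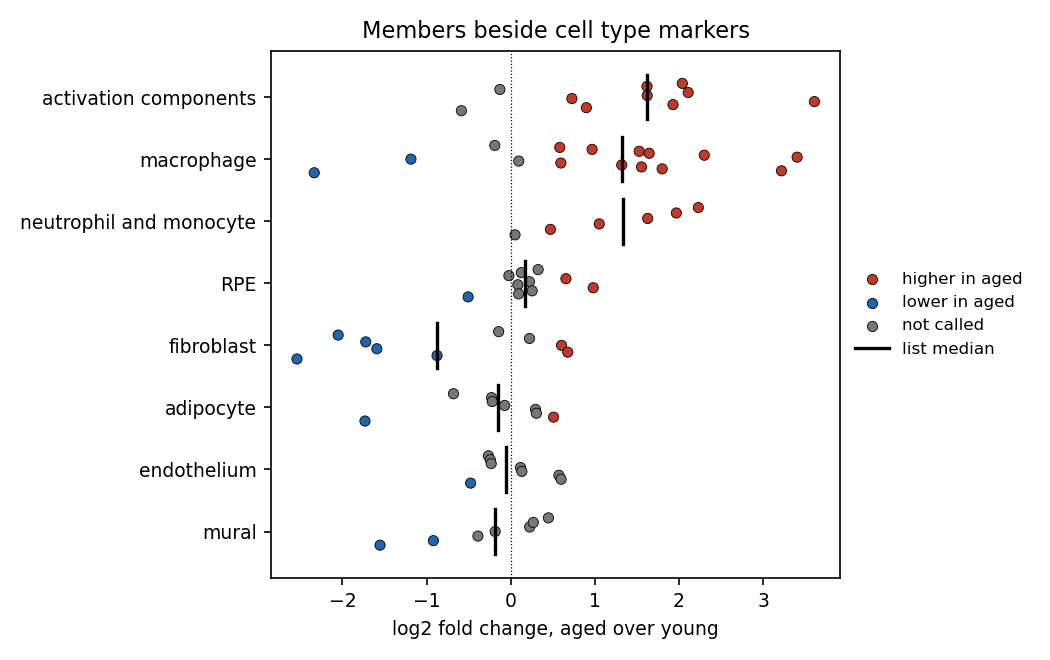
Log2 fold change in aged over young RPE/choroid (horizontal axis) of the complement activation components and of the tested markers of 7 cell types, with points coloured by the test at adjusted p under 0.05 and a line at the median of each list. The medians of macrophage markers (1.32) and of neutrophil and monocyte markers (1.34) lie near that of the activation components (1.62), and the median of RPE markers (0.17) lies near 0. Lists not drawn include mast cell markers (median 2.78) and lymphocyte markers (0.67). Schwann cell, rod and skeletal muscle markers (-0.10, 0.18 and -0.26) are not drawn either.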

How the data were processed

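The authors sequenced poly(A)-selected RNA of RPE/choroid, 3 libraries per age, with ribosomal RNA removed and a stranded kit used per the labels. According to the study's methods, reads were trimmed by BBDuk, aligned by STAR to Ensembl transcripts of GRCm38, quantified in Sailfish and scaled by total count, and the authors compared the ages in DESeq2. The version of DESeq2 is not given in the sources used here.

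The deposited mean normalized count is a signal averaged over all 6 libraries. Fold changes with their standard errors were deposited as log2 values, and the Wald statistic is a score deposited by the authors. The deposited p-values come from the authors' 2-sided Wald test, with and without adjustment. These columns are the authors' own comparison and the table holds nothing per library, so they are the values used, with the sign turned and the Benjamini-Hochberg adjustment recomputed over 18196 genes (mean of at least 10 and a p-value present). The table does not name the direction of its fold change. Young over aged was carried over from the study's text on its rRNA-depleted libraries, which counts upregulated genes in young relative to aged tissue. For the poly(A)-selected libraries the text gives no such wording but describes immune genes as increased in aged tissue, and this choice sets the sign of every fold change given.

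Approximate group means assume equal groups and that the fold change is the ratio of the group means. The largest standard error in the table was 0.434, and fold changes of low genes appear to be drawn toward 0, which brings their group means together. Depth per library is unknown. The mean normalized counts sum to 40816668, and the median standard error was 0.18 over genes tested and 0.16 over the 10 members, which sets the precision. Labels number the mice separately, while how far single mice differed is unknown. A further 283 genes with a mean of at least 10 had no p-value and were not tested.

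Positions and transcripts came from GENCODE for GRCm38, matched by symbol to 97.1% of the genes tested, and promoters from RefSeq. Levels per kilobase divide the mean count by the longest transcript. The slope of log2 count on log2 length over genes was 0.48, which does not settle whether counts scale with length. Shared sequence was measured in words of 50 bases over all transcripts. Counting by strand is not given in the sources used here.

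All members were named, as was every other complement gene that passed (the 5 most abundant where more than 5 did), and marker lists were given by counts, with a few markers named from the 3 most abundant of a list or from those that passed against its majority. All neutrophil and monocyte markers were named after their values were seen, and other genes given with values are background to these. The members and lists were chosen with earlier results of these data known, so lists have counts and medians and no test. Relative to library totals, or with the trend in length and GC content taken out, p-values were recomputed from the altered fold change and the authors' standard error under a normal distribution and adjusted again. The procedure was tested on simulated data. Python 3.11.15, numpy 2.4.6, pandas 2.3.3, scipy 1.17.1, statsmodels 0.14.6 and matplotlib 3.10.9 were used. The rRNA-depleted libraries were not analysed here.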

Additional observations from a re-analysis of the deposited data

How the results depend on the processing

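Calls of the 10 activation components were 8 with no filter on the mean, with the authors' own adjusted p-values, with p-values worked out from the Wald statistic where none was given and with the trend in length and GC content removed. They were 7 with a mean of at least 50, which left *Cfb* out, with adjusted p under 0.01 and with the shift to library totals, and 6 where the log2 fold change also had to reach 1 in size. Only the shift to library totals and the removal of the trend in length and GC content altered fold changes. Under these the median log2 fold change stayed between 1.49 and 1.62, and no component changed sign. The other alternatives changed filters, p-values or thresholds and left each fold change as it was, so they could not test the median or the signs. Over components and alternatives, 75 outcomes, called or not called, stayed as reported and 4 calls were lost. The lost calls were *C2* under the fold change threshold and *Cfb* under that threshold, under adjusted p below 0.01 and under the shift. The adjusted p-values, recomputed here where the fold change was shifted or a trend taken out and otherwise from the authors' DESeq2 Wald test, ranged from 0.0275 to 0.0605 for *Cfb*, from 0.0802 to 0.247 for *Cfd* and from 0.240 to 0.729 for *Cfp*. The fold change threshold left 1287 of the 4235 calls over all genes, and adjusted p under 0.01 left 2895. Leave-one-out, the replicate block and limma with another pseudocount were not run. No paired analysis was possible because libraries were deposited only as a joint summary. The unknown depth of the libraries limits what can be said of genes with counts as low as those of *Cfb* and the terminal components.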

Other observations

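The C1q domain is shared by a family of secreted and matrix proteins outside complement, and these genes did not follow the C1q chains. The table held 25 such genes. Among the 21 tested, 0 were higher and 6 were lower in aged RPE/choroid, with a median log2 fold change of -0.22 (10.4% of all genes tested were lower). *Col8a1*, a collagen of Bruch's membrane and other basement membranes, was the most abundant of the 6, with approximate means of 39328 in young and 26734 in aged tissue (log2 fold change of -0.56, adjusted p = 0.00225, the authors' DESeq2 Wald test). The C1q and tumour necrosis factor related genes *C1qtnf6* (-1.69, adjusted p = 1.92e-13), *C1qtnf3* (-1.71, adjusted p = 1.74e-07) and *C1qtnf9* (-0.86, adjusted p = 0.00151) were lower by the same test. *Mmrn1*, a multimerin of platelets and endothelium (-1.44, adjusted p = 2.11e-05), and *Cbln3*, a cerebellin (-2.28, adjusted p = 4.53e-08), were lower too. Relative to library totals 8 of the 21 were lower, where lower calls over all 18196 genes tested went from 1884 to 3377. With the trend in length and GC content removed 7 were lower, beside 1422 of 17671 genes.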
